A study of Homo sapiens with 6 samples.

Results

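The chemokine system was examined in LX-2 cells, a human hepatic stellate cell line, with and without recombinant human BMP9. Genes were chosen by symbol, as those named CCL, CXCL, CCR, CXCR, XCL or XCR followed only by digits. CX3CL1, CX3CR1 and ACKR1 to ACKR4 were included as well. This choice was made with earlier results of these data known. Only probe sets that the platform annotation gives to a single gene were used. This gave 57 genes of the 18132 measured and 105 probe sets of the 44988 with a single gene symbol, of 49395 probe sets in all. There were 37 genes for ligands and 20 for receptors.

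Both groups came from the same cell line, kept without serum for 12 h. The 3 control samples then received BMP9 at 0 ng/ml and the 3 BMP9 samples received 50 ng/ml, for 24 h, and each was hybridised to 1 Affymetrix array. The labels call the 3 samples of a group biological replicates and do not mention separate cultures, so the spread behind each p-value may be technical. Expression is given as the log2 value of a probe set, differences are BMP9 minus control, and SD is over the 3 arrays of a group. A gene was represented by the probe set with the highest mean over the 6 arrays, here called its brightest probe set. It was called changed at a limma p under 0.05 after Benjamini-Hochberg adjustment over all 18132 genes.

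Chemokines are small secreted proteins that guide migrating cells along gradients held on glycosaminoglycans. They are grouped by the spacing of their first cysteines into the CC, CXC, CX3C and XC families, and they act through G protein-coupled receptors that signal mainly through Gi. Atypical chemokine receptors bind and remove chemokines without this signal. In the injured liver, stellate cells both release chemokines that draw in leukocytes and carry some chemokine receptors themselves. BMP9 is a TGF-beta family ligand that signals through the receptor ALK1 and SMAD1, SMAD5 and SMAD9.

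The arrays had median log2 values of 3.55 to 3.57. Markers of stellate cells and myofibroblasts were high for part of the list: vimentin (VIM) stood at 11.6 in control and 11.2 with BMP9, COL1A1 at 9.73 and 9.79, and SPARC at 8.34 and 8.39. The contractile gene ACTA2, the lowest of the list in control, stood at 3.90 and 4.04. Of 14 genes on this list, 0 were called. The groups did not overlap in 3 of them, or 21.4%, against 18.8% of all genes. VIM and DCN were lower with BMP9 (-0.37 and -0.74) and HAND2 was higher (0.30). Of 11 measured leukocyte markers, 0 were called, and their mean level was 4.14 to 4.21 on the control arrays and 4.15 to 4.29 on the BMP9 arrays. The defining leukocyte gene PTPRC stood at 2.19 ± 0.092 and 2.37 ± 0.16 (SD, n = 3), and LYZ at 2.03 and 2.05. The highest of the list were NCAM1 at 6.995 and 6.962, CD68 at 6.99 and 6.84, and CSF1R at 5.49 and 5.43, so its levels were not uniformly low. No marker list of another liver cell type had a called gene, over 7 endothelial, 6 hepatocyte and 4 cholangiocyte markers. Over all genes 0.684% were called. Groups did not overlap in 2 hepatocyte markers (33.3%, SERPINA1 higher and ALB lower), 1 cholangiocyte marker (25%, EPCAM higher) and 0 endothelial markers. Mean levels on the control arrays were 4.33 to 4.44 for endothelial, 4.71 to 4.75 for hepatocyte and 3.56 to 3.685 for cholangiocyte markers.

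Of the 57 genes, 1 was called, the CC ligand CCL5, which fell. Over all genes, 124 were called in either direction (0.684%), and 82 were called lower (0.452%). With each probe set on its own, 1 of the 105 was called, against 0.436% of all single-gene probe sets. An unadjusted limma p under 0.05 was found for 7 of the 57, or 12.3%, against 12.9% of all genes. The BMP9 arrays all lay on one side of the control arrays for 6 of the 57, or 10.5%, against 18.8% of all genes. Of these, 3 were higher (all genes 10.3%) and 3 lower (all genes 8.49%). Among the probe sets, 13 of 105 had groups that did not overlap, 12.4% against 17.3%. An unadjusted limma p under 0.05 was found for 15 of the 105 probe sets, 14.3% against 11.4% of all single-gene probe sets, and for 4 of the 20 receptor genes, 20% against the 12.9% of all genes. The shares of the chemokine family thus lay on both sides of those over the whole array.

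**Figure D1:**
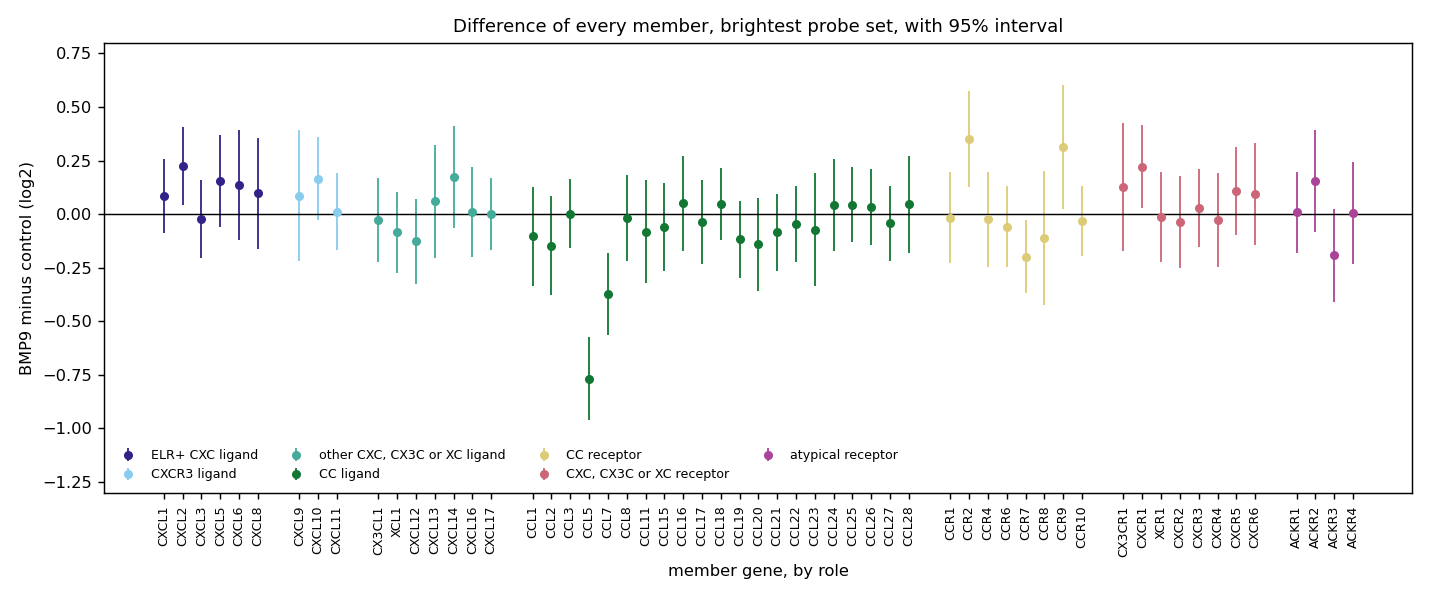
Log2 difference, BMP9 minus control (vertical axis), of the brightest probe set of each of the 57 genes, arranged by role; points are differences and lines 95% limma intervals. The 28 negative and 29 positive differences lie close to 0, with CCL5 at -0.77 the farthest from it.

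The differences ran from -0.77 to 0.35, with 29 positive (50.9%) and 28 negative. Over all genes 54.7% of differences were positive, the share beside which the sign counts of subgroups below stand. The median absolute difference was 0.073, against 0.084 over all genes. The 95% interval of the signal difference lay within a 2-fold change in either direction for all 57 genes, CCL5 included, and within a 1.5-fold change for 55. For a probe set not known to be above background, this does not bound the change in RNA. The median standard error (SE) of a log2 difference was 0.092, against 0.087 over all genes. The number of arrays limits this precision.

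CCL5 encodes RANTES, a CC ligand that attracts T cells and monocytes through CCR1 and related receptors. Its brightest probe set read 6.05, 5.83 and 6.07 on the control arrays and 5.24, 5.14 and 5.27 on the BMP9 arrays. Every BMP9 array was below every control array, and the gap between the groups was wider than the range within either. The mean was 5.99 ± 0.13 in control and 5.22 ± 0.065 under BMP9 (SD, n = 3). This difference of -0.77 (SE 0.087, 95% interval -0.96 to -0.58, limma adjusted p = 0.00274) made CCL5 1.70-fold lower. In a bulk sample, fewer cells that express a gene and less RNA per cell cannot be told apart.

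The other probe sets of CCL5 did not pass. The second read 5.81, 5.64 and 5.64 in control and 5.28, 5.58 and 5.58 with BMP9, a difference of -0.22 (limma adjusted p = 0.457 over probe sets). It carries the suffix that the manufacturer gives to probe sets whose probes can cross-hybridise. The third read 2.58, 2.61 and 2.42 in control and 2.76, 2.73 and 2.72 with BMP9, a difference of 0.20 in the opposite direction (adjusted p = 0.386). Neither the first nor the third probe set carries that suffix. With all 3 averaged, the difference was -0.26 and the call was lost (adjusted p = 0.125). The files do not give the position of the probes in the transcript.

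**Figure D2:**
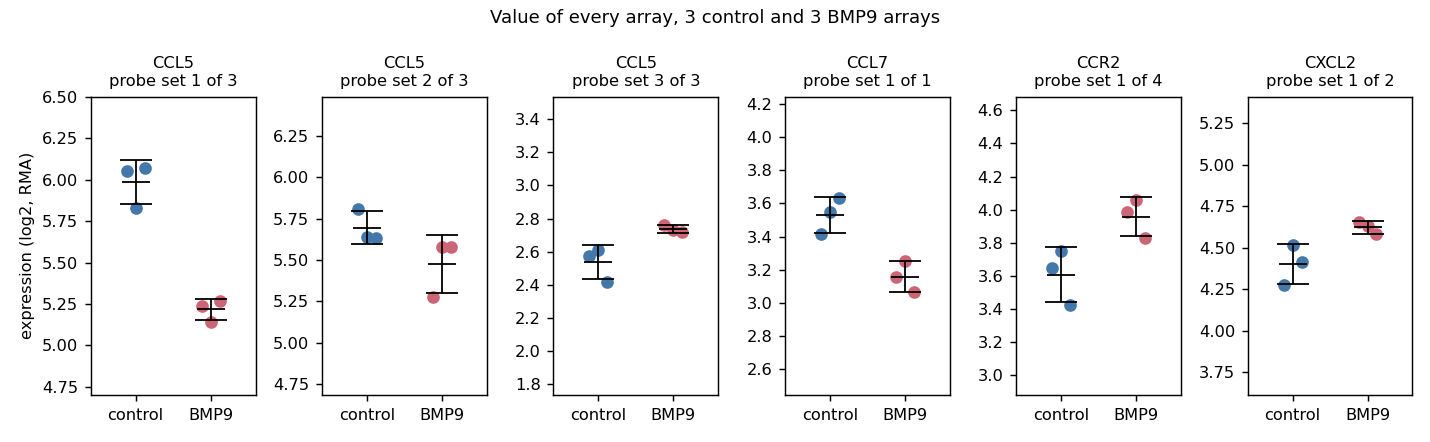
Log2 expression (vertical axis, each panel with the same span and its own range) on the 3 control and 3 BMP9 arrays for the 3 probe sets of CCL5 and the brightest ones of CCL7, CCR2 and CXCL2; points are arrays, long lines means and bars 1 SD. Groups do not overlap in any panel, and the third CCL5 probe set runs opposite to the first.

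CCL5 was called lower in 13 of 15 other settings of the gene comparison. All 13 rest on its brightest probe set, and the other CCL5 probe sets alone, given above, are not counted among the 15. Apart from the average over probe sets, the call was lost when arrays were scaled to the poly-A control transcripts added to the RNA before labelling, where the difference was -0.31 (limma adjusted p = 0.0627). These controls read lower on the BMP9 arrays, at 5.33 to 5.72 against 5.94 to 6.07, so this scaling moves the median of all genes to 0.48. Scaling to the hybridisation controls, which moves it to 0.24, left CCL5 at -0.55 (adjusted p = 0.00543). With any single array left out, the difference was -0.85 to -0.73 and the adjusted p 0.00337 to 0.0226.

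**Figure D3:**
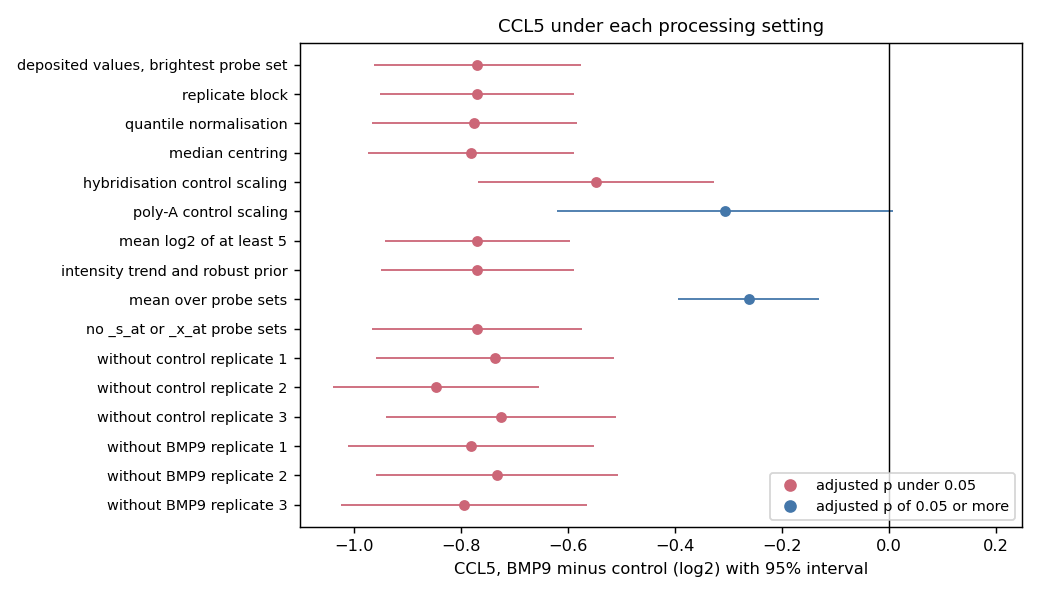
Log2 difference of CCL5, BMP9 minus control, with its 95% interval (horizontal axis) under each setting (vertical axis); red marks an adjusted p under 0.05 and blue one of 0.05 or more. All values shown are below 0, from -0.85 to -0.26, and the poly-A scaling and the mean over probe sets lose the call. The other CCL5 probe sets alone are not shown.

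The other CC ligands, most of which attract monocytes, eosinophils or lymphocytes, gave no further call. Of the 21 measured, 1 fell (4.76%, against 0.452% of all genes called lower) and 0 rose. Differences were negative in 14 and positive in 7 (33.3%, all genes 54.7%), with a median of -0.046 against 0.014 over all genes. CCL7 (MCP-3) draws monocytes through CCR2 and has 1 probe set. It read 3.41, 3.55 and 3.63 in control and 3.16, 3.25 and 3.06 with BMP9. The groups did not overlap, and the difference of -0.37 (SE 0.086) did not pass (limma adjusted p = 0.0984). CCL2 (MCP-1), a monocyte attractant that activated stellate cells can release, read 2.29, 2.67 and 2.57 in control and 2.30, 2.46 and 2.34 with BMP9. Its groups overlapped and the difference was -0.15 (adjusted p = 0.591).

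The ligands of CCR4, CCL17 and CCL22, differed little. CCL22 read 7.28, 7.06 and 7.24 in control and 7.16, 7.15 and 7.14 with BMP9, a difference of -0.046. CCL17 read 6.05, 6.33 and 6.25 against 6.23, 6.18 and 6.11, a difference of -0.037. The thymic and gut ligand CCL25 read 6.05, 6.17 and 5.97 against 6.05, 6.14 and 6.13, a difference of 0.043. In all 3 genes the groups overlapped. CCL8, another CCR2 ligand, had a second probe set at -0.40 (adjusted p = 0.295 over probe sets), while its brightest stood at -0.018.

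The CXC ligands with an ELR motif before the first cysteine recruit neutrophils through CXCR1 and CXCR2. Of the 6, 5 differences were positive and 1 negative, the median was 0.12, and 0 were called. CXCL2, named here after its values were seen, read 4.27, 4.51 and 4.41 in control and 4.66, 4.63 and 4.58 with BMP9. The groups did not overlap, and the difference of 0.22 did not pass (limma adjusted p = 0.297); its second probe set differed by 0.18. CXCL8 (interleukin-8) read 3.02, 3.16 and 2.91 against 2.86, 3.27 and 3.25, a difference of 0.097 with overlapping groups (adjusted p = 0.775). Its 3 probe sets differed by 0.092 to 0.11. CXCL1 read 6.03, 6.18 and 6.22 against 6.19, 6.24 and 6.26, a difference of 0.084 with overlapping groups (adjusted p = 0.697).

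The interferon-inducible ligands of CXCR3, which draw activated T cells, numbered 3, all with positive differences and 0 called. CXCL10 read 3.01, 2.88 and 3.04 in control and 3.05, 3.11 and 3.28 with BMP9. The BMP9 arrays were all above the control arrays, by a small margin, and the difference of 0.17 did not pass (limma adjusted p = 0.458). With arrays centred on their medians, 2 of these 3 differences were positive.

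CXCL12 (SDF-1), which retains CXCR4-bearing cells, had the most probe sets, 5. The brightest read 7.31, 7.38 and 7.50 in control and 7.38, 7.31 and 7.12 with BMP9. The groups overlapped, and the difference was -0.13 (95% interval -0.33 to 0.072, limma adjusted p = 0.590). The differences of its probe sets ran from -0.22 to 0.058. The membrane-anchored ligand CX3CL1 (fractalkine) read 5.995, 6.013 and 6.248 against 6.042, 6.004 and 6.125, a difference of -0.028. The mucosal ligand CXCL17 read 6.22, 6.18 and 6.27 against 6.13, 6.24 and 6.30, a difference below 0.01. Of the 7 measured ligands of this mixed CXC, CX3C and XC group, 4 differences were positive and 0 were called.

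Receptors gave 0 calls among 20, against 0.684% of all genes called, with 10 positive and 10 negative differences from -0.20 to 0.35. CCR2, the receptor for CCL2 and CCL7, read 3.65, 3.75 and 3.43 in control and 3.98, 4.06 and 3.83 with BMP9. The BMP9 arrays were all higher, but the difference of 0.35 (SE 0.10) did not pass (limma adjusted p = 0.185). The other 3 probe sets of CCR2 differed by -0.19, -0.076 and 0.27, so they split in sign. The mean over its 4 probe sets differed by 0.091 (limma adjusted p = 0.663). All of them end in _s_at, a suffix treated here as cross-hybridising. Its ligands CCL2 and CCL7 had negative differences, and none of the 3 genes was called. CXCR4, the signalling receptor for CXCL12, read 3.90, 4.28 and 4.14 against 4.10, 4.07 and 4.08, a difference of -0.028 (adjusted p = 0.938).

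Of the remaining receptors, 3 had an unadjusted limma p under 0.05 and are named after their values were seen. They were CCR9, the receptor for CCL25, at 0.31 (adjusted p = 0.350), CXCR1, a receptor for CXCL8, at 0.22 (adjusted p = 0.323), and CCR7, which guides cells to lymph nodes, at -0.20 (adjusted p = 0.317). The other probe set of CXCR1 went the opposite way, at -0.29 (adjusted p = 0.482 over probe sets), and the mean over both differed by -0.035. CCR7 and CCR9 have 1 probe set each. Of these 3 genes, only CCR7 had groups that did not overlap. The differences of the 8 CC receptors were negative in 6, with a median of -0.027. Those of the 8 CXC, CX3C and XC receptors were positive in 5, with a median of 0.062.

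The atypical receptors also gave 0 calls among 4, against 0.684% of all genes called. ACKR3 (CXCR7), which removes CXCL12, read 4.89, 4.78 and 4.69 in control and 4.43, 4.59 and 4.76 with BMP9. One BMP9 array lay among the control values, and the difference was -0.19 (limma adjusted p = 0.442). Its second probe set differed by -0.35 (adjusted p = 0.272 over probe sets) and the other two by 0.035 and 0.099. ACKR1, the Duffy antigen receptor, read 6.64, 6.65 and 6.44 against 6.55, 6.53 and 6.67, a difference of 0.0084. The groups overlapped in both genes.

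Probe sets of the same gene often disagreed in sign. Among 29 genes with more than 1 probe set, all probe sets had the same sign in 10 and mixed signs in 19. Another 9 probe sets carried several symbols, at least 1 of them of a chemokine or receptor, and covered CCL4, CCL14 and XCL2, which had no probe set of their own. In a fit over all 49293 probe sets that are not array controls, which called 0.41%, 0 of these 9 were called. Their lowest adjusted p was 0.336 (1 had an unadjusted limma p under 0.05), and their differences ran from -0.33 for a probe set shared by CCL4 and its copies to 0.23 for one shared by CXCR2 and its pseudogene.

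Levels were low for much of the family, as for much of the array. The mean log2 value was under 4 for 28 of the 57 genes, at least 5 for 20, and at least 7 for 2, CXCL12 and CCL22. Over all 18132 genes these counts were 7394, 6745 and 1216. The files hold no detection calls. The array's own background probe sets, which match no transcript, ranged from 1.68 in control for probes with 3 G or C bases to 9.90 for probes with 25. The chemokine means, from 1.93 to 7.33, lay within this range, so a level alone does not place a chemokine probe set above background.

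**Figure D4:**
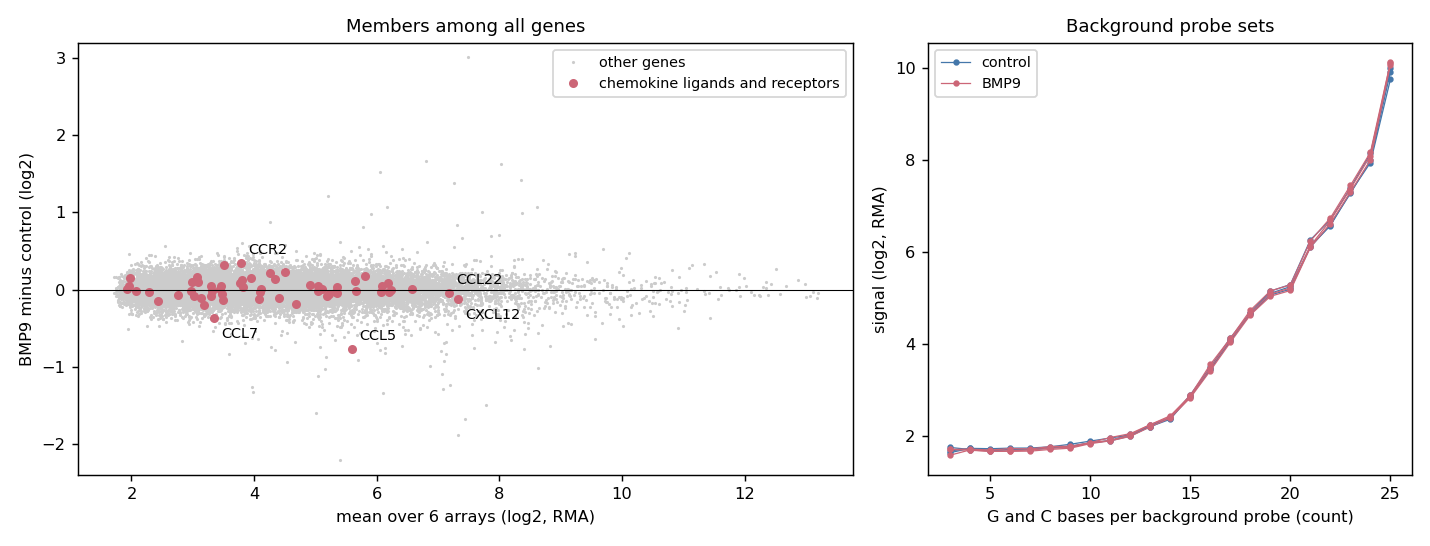
Left, the log2 difference, BMP9 minus control, of each gene (vertical axis) against its mean log2 value over the 6 arrays, with chemokine genes in red and other genes in grey; right, the mean log2 signal of background probe sets on each array by the number of G and C bases. The chemokine means run from 1.93 to 7.33, within the range of the background probe sets over all G and C counts. CCL5 stands below the other chemokine genes.

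Signs near 0 depended on how arrays were scaled. With scaling to the hybridisation controls, 55 of the 57 differences were positive, and 12 genes were called higher and 1 lower, CCL5, against 27.8% of all genes called higher. The chemokine median was then 0.22, against 0.24 over all genes. With scaling to the poly-A controls, 56 were positive and 52 were called higher, against 87.5% of all genes, with medians of 0.46 and 0.48. The direction of every subgroup above is therefore given for the values as deposited and is relative to these shifts. The majority sign was also lost on centring arrays by their medians for the mixed CXC, CX3C and XC ligands (2 of 7 positive) and the atypical receptors (1 of 4 positive).

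A RefSeq-based table of promoters, build GRCh38.p14, matched 41 of the 57 genes. The sequences of CXCL2 and CCL7 are shown because, of the CXC and CC ligands in that table, these had the largest differences. The 250 bases upstream of the start were searched on both strands, and matches that overlap were allowed. In the lines below, capitals mark motif matches. For CXCL2 (chr4:74099196-74099445, minus strand) they mark the interferon element GAAANNGAA, 217 to 209 bases before the start, and 2 overlapping matches to the NF-kB consensus, from 78 to 68 bases before it. For CCL7 (chr17:34269971-34270220, plus strand) they mark the AP-1 motif TGANTCA, 51 to 45 bases before the start, and the TATA box TATAAA, 30 to 25 bases before it.
CXCL2: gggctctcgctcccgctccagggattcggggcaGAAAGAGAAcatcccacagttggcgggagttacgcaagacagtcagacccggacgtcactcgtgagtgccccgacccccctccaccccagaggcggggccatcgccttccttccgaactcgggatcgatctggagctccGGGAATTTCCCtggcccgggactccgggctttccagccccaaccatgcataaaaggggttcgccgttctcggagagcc
CCL7: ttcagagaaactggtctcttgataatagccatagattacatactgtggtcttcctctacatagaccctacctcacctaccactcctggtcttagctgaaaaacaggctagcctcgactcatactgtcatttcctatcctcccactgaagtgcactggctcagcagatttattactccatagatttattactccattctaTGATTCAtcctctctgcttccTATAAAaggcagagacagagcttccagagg

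NF-kB is the factor through which inflammatory signals switch on many chemokine genes. Its consensus was found in 9 of the 41 promoters (22.0%), against 5.05% of the 27305 promoters in the table. The 9 genes were CCL20, CCL22, CXCL1, CXCL2, CXCL3, CXCL5, CXCL6, CXCL10 and CXCL11. Their log2 differences ran from -0.14 to 0.22 with a median of 0.084, against 0.015 for the 32 without a match. CCL5, the only gene called, is among the genes without a promoter in the table and so is in neither group. All of the 9 genes but CCL20 and CCL22 are among the 10 CXC ligand genes on chromosome 4, whose median difference was 0.092. Motif and neighbourhood thus overlap, and their parts in the difference were not tested. The interferon element was in 10 of the 41 (24.4%, all promoters 7.06%), the TATA box in 13 (31.7%, all promoters 11.1%) and TGANTCA in 7 (17.1%, all promoters 6.60%). The GC-rich element GGCGCC, which SMAD1 and SMAD5 can bind, was in 1, that of CCL24, against 16.1% of all promoters. CCL24 differed by 0.041. A match describes these letters only and not binding.

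Genes that control chemokine production or signal below chemokine receptors gave 0 calls. Over all genes 0.684% were called, a share at which lists of this size can hold 0 called genes. The NF-kB list had 17 measured factors and inhibitors, 10 with positive differences, and a median of 0.0098. NFKB1 differed by 0.22 (limma adjusted p = 0.280) and the kinase gene MAP3K14 by -0.34 (adjusted p = 0.182). Of 15 interferon response genes, 10 differences were positive. IRF2 differed by -0.42 (adjusted p = 0.0792), the interferon receptor gene IFNAR1 by 0.42 (adjusted p = 0.121) and JAK1 by 0.31 (adjusted p = 0.125). In these 3 genes and IRF3 the groups did not overlap. That was 4 of the 15, or 26.7%, against 18.8% of all genes. Of 14 receptors and adaptors for cytokines that induce chemokines, 8 differences were negative, with TLR3 at -0.35 (adjusted p = 0.0827). Of 31 genes that signal below chemokine receptors, 19 differences were positive, with GNG12 at 0.28 and GNAI2 at -0.28 (adjusted p = 0.182 and 0.185). Groups did not overlap in 2 of the 17 NF-kB genes (11.8%), 3 of the 14 receptors and adaptors (21.4%) and 8 of the 31 signalling genes (25.8%).

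Among 17 genes for proteases that trim chemokines and for the proteoglycans that hold them, 1 rose and 2 fell, or 17.6% against 0.684% of all genes, in a list chosen with earlier results of these data known. The gelatinase gene MMP2, whose protein cleaves CCL7 and CXCL12, read 7.84, 7.77 and 7.83 in control and 6.58, 6.49 and 6.66 with BMP9. The groups lay far apart, with a difference of -1.24 (SE 0.076, limma adjusted p = 2.79e-05), although the mean over its probe sets gave -0.28 and no call (adjusted p = 0.120). MMP14, a membrane protease that activates MMP2, read 6.59, 6.67 and 7.005 against 6.16, 6.24 and 6.13, a difference of -0.58 (adjusted p = 0.0431). This call was lost without any 1 of the 6 arrays (adjusted p 0.0593 to 0.175), with the replicate block (0.0670), with poly-A scaling (-0.12) and with the mean over probe sets (-0.24). EXT1, which builds heparan sulfate chains, read 6.25, 6.10 and 6.10 against 6.73, 6.57 and 6.72, a difference of 0.52 (adjusted p = 0.0195). Its call was lost without control replicate 2 or 3 or BMP9 replicate 1 or 3 (adjusted p 0.0784 to 0.103).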

How the data were processed

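The authors deposited log2 values for each probe set. The submitters' processing notes name RMA (robust multi-array average) as the tool. Its software, version and settings remain not given in the sources used here. No source states the log base, which was inferred from what RMA usually writes and from the span of the values. Because RMA equalises array distributions by quantiles, a shift common to most transcripts would mostly vanish. Of 49395 probe sets, 102 were array controls, 1832 carried several symbols and 2473 none; they were kept out of the gene comparison. No 2 arrays shared more than 0.00405% of their values.

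Groups were compared with lmFit and eBayes in limma 3.58.1 under R 4.3.3, without covariate or filter on dim probe sets, with Benjamini-Hochberg adjustment over all genes or all single-gene probe sets. The code was tested on simulated data. Figures used matplotlib 3.10.9.

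Members and lists were chosen with earlier results of these data known. Given array by array were genes called in any probe set, with a mean of at least 6, or without overlap and an absolute difference of at least 0.3, and always CXCL12, CXCR4, ACKR3, CXCL8, CCL2, CCL5, CX3CL1 and CXCL10. A further gene that the rule lists is left unreported. Context genes other than cell type markers were named when called, otherwise at most 4 per list by smallest p.

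Alternatives were the replicate block, quantile normalisation, median centring, control scalings, minimum means of 5 and 7, an intensity trend with a robust prior, the mean over probe sets, no cross-hybridising probe sets (_s_at, _x_at), each array left out in turn and, chosen after seeing the data, each CCL5 probe set alone.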

Additional observations from a re-analysis of the deposited data

How the results depend on the processing

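The number of chemokine genes called, 1, became 13 with scaling to the hybridisation controls, 52 with the poly-A controls, and 0 with the mean over probe sets or with a minimum mean of 7, which left 2 of the 57 genes. The number of probe sets called, 1, became 18, 89 and 0 with the hybridisation, poly-A and minimum-of-7 settings. Without any single array both counts ranged from 1 to 1. With the poly-A scaling the sign turned for CCL17 (0.43), CCL22 (0.42), CX3CL1 (0.44), CXCL12 (0.34) and CXCR4 (0.43), all called higher there; the scaling itself adds the shift. The third CCL5 probe set gave 0.20 against -0.77, and the cause was not tested. CCL5 lost its call only with the poly-A scaling (-0.31) and the mean over probe sets (-0.26), of the 15 alternatives of the gene comparison.

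With the replicate block, 1 gene and 1 probe set of the family were called, as without it, and CCL5 stood at -0.77 (limma adjusted p = 0.00518). Over all genes 94 were called with the replicate block, against 124. Samples of the same number did not deviate together over the array (r = 0.00378, 0.0463 and -0.0214). For samples of different numbers r ran from -0.0726 to 0.0632. The labels do not say whether equal numbers share a culture or batch, and with 3 samples per group these r values cannot settle it. The count of 124 was 285 with the intensity trend and robust prior, 267 and 247 with minimum means of 5 and 7, 5110 and 15883 with the hybridisation and poly-A scalings, and 54 to 78 with an array left out.

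Over 23 named genes, the 338 values under alternatives kept their direction and side of the threshold in 272. The low signal of many probe sets and 3 arrays per group limit what can be seen.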

Other observations

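Many chemokine genes lie side by side on a chromosome, so their differences were also set out by neighbourhood, with gene order taken from the RefSeq table of assembly GRCh38.p14. Of 10 CXC ligand genes on chromosome 4, in the order CXCL8, CXCL6, CXCL1, CXCL5, CXCL3, CXCL2, CXCL9, CXCL10, CXCL11 and CXCL13, 9 differences were positive. They ran from -0.022 to 0.22 with a median of 0.092, and 0 passed in limma (CXCL2 had an unadjusted p under 0.05). With arrays centred on their medians 8 of the 10 were positive, and with poly-A scaling all 10. Of 14 chemokine or receptor genes on chromosome 17, which include CCL2, CCL7, CCL11, CCL8, CCL1 and CCL5 in this order, 10 differences were negative, with a median of -0.067. CCL7 and CCL5, the largest negative differences of the family, have 3 genes measured here between them, CCL11, CCL8 and CCL1, at -0.081, -0.018 and -0.10, and none of these 3 passed. Neighbours are not independent, and these counts were not tested.

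Relatives of the family outside the symbol rule gave 0 calls among 6 measured, against 0.684% of all genes called. MIF, a cytokine that binds CXCR4 and CXCR2, had a control mean of 9.14 ± 0.076 and a BMP9 mean of 9.33 ± 0.077 (SD, n = 3), a difference of 0.18 (limma adjusted p = 0.359). PPBP, the platelet ligand of CXCR2, differed by 0.21 (adjusted p = 0.243). In both genes the groups did not overlap, which was 2 of the 6, or 33.3%, against 18.8% of all genes.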
